A study of Mus musculus with 12 samples.

Results

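Imprinted genes are expressed from 1 parental copy, and here 36 of them were followed through the cochlea of mice grown from embryonic stem cells. They are the rows of the deposited FPKM table (read fragments scaled by transcript length and by library total) whose gene name is on the list, 36 of 37432 genes. Of these 36, 27 had at least 1 FPKM in 2 or more libraries and entered the tests, and 9 did not. The cochlea, the spiral sound-sensing organ of the inner ear, was cut at postnatal day 14 (P14) into apical, middle and basal turns. The homozygous mice were *Gjb2* 35delG/35delG males, labelled ho and KO, and the comparison mice were purchased wild-type (WT) males of the same age. Each genotype and turn had 2 biological repeats, 12 RNA-seq libraries in 6 groups. 35delG removes a base of *Gjb2*, which encodes connexin 26, a gap junction protein of the cochlea.

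The origin of the mice differed along with their genotype. Homozygous embryonic stem cells were derived from blastocysts that heterozygous parents gave by in vitro fertilization, and were injected into tetraploid B6D2F1 embryos. The pups were delivered by caesarean section and nursed by ICR females. The allele had entered the line through haploid androgenetic stem cells that lacked the H19-DMR and the IG-DMR, the control regions of the H19-Igf2 and Dlk1-Meg3 domains. The founders were bred to C57BL/6J for several generations, and carriers of either deletion were discarded. How many animals, ears or stem cell lines a library pools is not given in the sources used here, so p-values measure only the spread between these libraries. The paper describes the background of the homozygous males as almost C57BL/6J and names no strain for the purchased wild-type males. Genotype, stem cell origin, delivery, nursing, strain background and supplier cannot be told apart.

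Imprinted genes lie in domains, and each domain is set by a control region that is methylated on the maternal or the paternal chromosome in the germline. Neighbours in a domain are often expressed from opposite parental copies, so a lost or doubled methylation mark can move them in opposite directions. Several have roles in fetal growth, some are noncoding RNAs that host small RNAs, and many stay high in neurons after birth. Methylation can be altered during culture of stem cells and early embryos, and the comparison asks whether members of a domain shifted together between the 2 genotypes. RNA level does not show which parental copy was read.

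ZFP57, a zinc finger protein that protects imprinted methylation in the early embryo, recognizes the hexamer TGCCGC. Promoter windows of 300 bases, from 250 before to 50 after a transcript start, were taken from RefSeq (GRCm38.p6) and searched for TGCCGC on both strands. Windows were found for 29 of the 36 genes, and those of *H19*, *Rtl1*, *Impact*, *Sgce*, *Cdkn1c*, *Peg10* and *Peg13* are not shown. The hexamer was present in at least 1 window of 10 of these 29 genes (34.5%), against 13.1% of all 27025 genes. By window it was present in 11 of 45 (24.4%), against 11.6% of all 32851 windows. A match describes the letters only. The windows of *Mest*, *Meg3* and *Snrpn* are shown because these genes were called between turns and hold the hexamer, whose letters are in capitals (GCGGCA is TGCCGC on the other strand). They lie at chr6:30737800-30738099 on the plus strand, chr12:109540746-109541045 on the plus strand and chr7:60005150-60005449 on the minus strand, the last being 1 of several *Snrpn* starts. All 3 genes also have windows without the hexamer, for *Mest* at chr6:30733256-30733555 and for *Meg3* at chr12:109545148-109545447. Another *Mest* window, chr6:30737803-30738102, overlaps the one shown and is counted separately. *Rian*, *Ndn*, *Peg3* and *Zrsr1*, also called between turns, have no hexamer in their windows.
Mest: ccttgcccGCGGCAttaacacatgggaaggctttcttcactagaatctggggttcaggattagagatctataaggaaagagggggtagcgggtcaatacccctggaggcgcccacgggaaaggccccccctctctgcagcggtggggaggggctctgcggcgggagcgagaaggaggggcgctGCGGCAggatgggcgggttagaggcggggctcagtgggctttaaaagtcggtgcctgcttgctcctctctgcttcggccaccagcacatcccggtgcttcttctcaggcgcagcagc
Meg3: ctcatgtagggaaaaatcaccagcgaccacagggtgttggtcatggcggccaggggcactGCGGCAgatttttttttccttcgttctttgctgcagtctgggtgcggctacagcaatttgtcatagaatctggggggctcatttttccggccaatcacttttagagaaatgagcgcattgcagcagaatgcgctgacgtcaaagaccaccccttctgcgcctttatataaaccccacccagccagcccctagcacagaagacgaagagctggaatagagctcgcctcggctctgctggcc
Snrpn: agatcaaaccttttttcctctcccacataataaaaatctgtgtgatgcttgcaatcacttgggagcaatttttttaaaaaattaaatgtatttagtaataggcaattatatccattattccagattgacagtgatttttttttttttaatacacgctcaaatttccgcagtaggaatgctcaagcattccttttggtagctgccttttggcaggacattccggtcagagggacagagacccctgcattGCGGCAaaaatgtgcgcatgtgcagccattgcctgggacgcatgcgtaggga

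The start sites of *Peg3* and *Usp29* lie 164 bases apart on opposite strands, and their windows share 263 bases. Neither window holds the hexamer.

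Some of the noncoding members host microRNAs, short RNAs that pair with messages through their seed. In the RefSeq table, hairpins lie on the same strand inside *Mirg* (14), *Rian* (3), *Meg3* (1), *H19* (1), *Igf2* (1), *Mest* (1) and *Usp29* (1). *Rtl1* has 1 on its own strand and 6 on the opposite strand. The FPKM of a host does not measure its mature microRNAs. The RefSeq mature sequences from *H19*, *Meg3* and *Mest*, 5′ to 3′ with the seed (bases 2 to 8) in capitals, are shown since the levels of these hosts are described in full. No 2 of the 6 have the same seed.
mmu-miR-675-5p (H19): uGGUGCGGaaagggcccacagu
mmu-miR-675-3p (H19): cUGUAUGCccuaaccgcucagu
mmu-miR-770-5p (Meg3): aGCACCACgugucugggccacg
mmu-miR-770-3p (Meg3): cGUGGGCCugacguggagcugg
mmu-miR-335-5p (Mest): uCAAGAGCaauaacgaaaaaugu
mmu-miR-335-3p (Mest): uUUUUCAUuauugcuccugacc

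The FPKM of a library summed to between 316425 and 408162 and were divided by a scale factor of 0.917 to 1.06, which gives the scaled FPKM used below. Depth is unknown, since FPKM do not carry it. A gene-level value does not show the 35delG allele, and *Gjb2* ranged from 139.7 to 434 scaled FPKM in wild-type mice and from 58.6 to 451 in homozygous mice. The libraries differed in tissue make-up. Hair cell markers at the apex summed to 503.4 and 500.7 in wild-type against 297.2 and 270.4 in homozygous libraries. In the middle turn their sums were 15.99 and 66.48 against 202.1 and 367.2, and at the base 84.46 and 99.47 against 7.098 and 4.142. Whether the cut pieces of a turn matched between genotypes was not tested. The summed level of 14 neuron markers was 19.5 in the wild-type basal repeat 1 and 971 in repeat 2. Among the homozygous middle libraries, repeat 1 had a cell cycle marker sum of 111 and every other library 18.5 or less. Oligodendrocyte markers summed to 937 in the wild-type middle repeat 1, to between 271 and 421 in the wild-type basal repeat 2 and both homozygous basal libraries, and to at most 10.2 elsewhere.

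*Gnas*, which encodes the stimulatory G protein alpha subunit, had the highest level of the 36 genes, with 446 to 670.2 scaled FPKM, a per-length scale on which genes can be compared. Its row mixes transcripts of different parental origin. *Snrpn*, *Nnat*, *Meg3* and *Rian* had means over the 12 libraries of 104, 103, 85.4 and 79.6, and medians of 72.5, 49.5, 39.2 and 43.1, since single libraries or groups carried the means. The growth genes *Igf2* and *Cdkn1c* had medians of 36.5 and 37.2. The 9 genes that were not tested lay at 1.13 scaled FPKM or lower in every library. Among these, *Dlk1* did not exceed 0.411, *Magel2* did not exceed 0.0370 and *Phlda2* was listed at 0 in 9 of the 12 libraries. Summed over all 36, the level was 732 to 1232 in 10 libraries, and 2070.4 and 2223 in the 2 homozygous basal libraries.

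**Figure D1:**
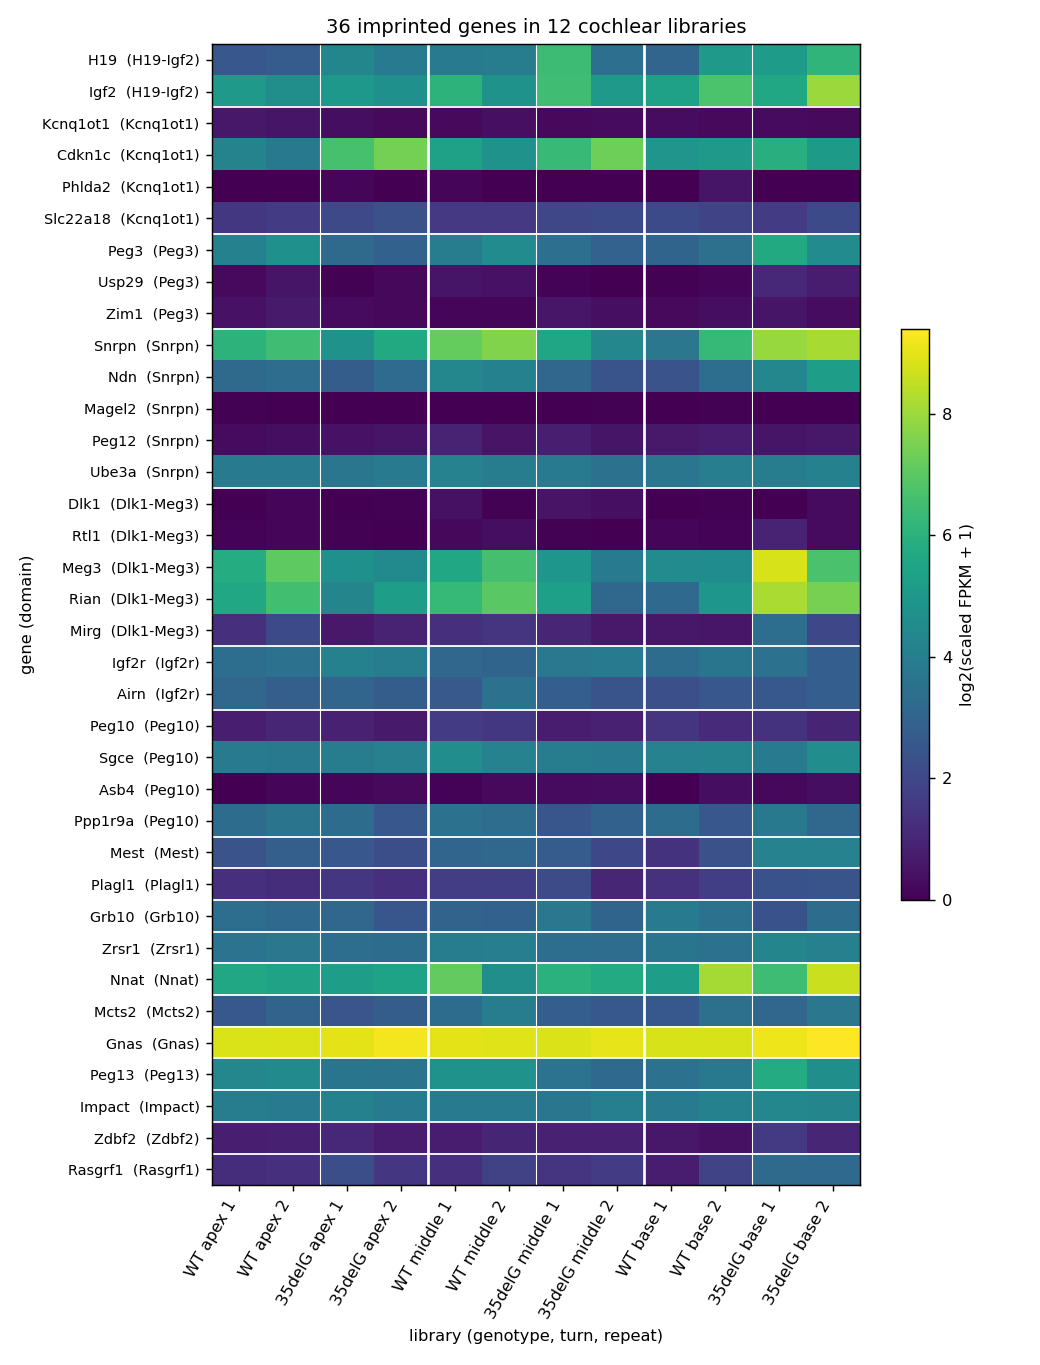
Level of each of the 36 imprinted genes (rows, with the domain in brackets) in each of the 12 libraries (columns, by turn and genotype), as log2(scaled FPKM + 1) on a colour scale from dark (0) to yellow. *Gnas* is bright throughout, and *Meg3*, *Rian* and *Snrpn* are brightest in the 2 homozygous basal libraries.

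Cell cycle and growth genes come first, since fetal growth is what imprinting is best known for. *Cdkn1c* (chr7:143458339-143461050), which encodes the cell cycle inhibitor p57, was the only member whose homozygous libraries lay above the wild-type libraries in all 3 turns. In the apical turn it was 17.4 and 12.8 scaled FPKM in wild-type against 98.9 and 173 in homozygous libraries. The middle turn had 40.9 and 27.5 against 80.9 and 157. In the basal turn it was 29.1 and 32.0 against 58.8 and 33.4. The gap was thus widest at the apex, and at the base the nearest libraries of the 2 genotypes were 32.0 and 33.4. Averaged over the turns, *Cdkn1c* rose by 1.76 on the log2(scaled FPKM + 1) scale (standard error 0.23, limma adjusted p = 0.00943 over all 16215 genes tested). It was the only member of 27 to be called, which here requires that the adjusted p be below 0.01 and the fold change exceed 2. Over all genes tested, 0.376% were called in this comparison (0.179% as higher), and 1.53% had the homozygous libraries above in every turn.

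By turn the log2 difference of *Cdkn1c* was 3.05 at the apex (standard error 0.41, limma adjusted p = 0.0147), 1.72 in the middle (standard error 0.41, adjusted p = 0.0530) and 0.52 at the base (standard error 0.41, adjusted p = 0.418), none of them called. Markers of strial marginal cells, the potassium-secreting cells of the lateral wall, moved in the same direction at the apex and in the middle. The sum of the 6 markers at the apex was 195 and 191 in wild-type against 450.4 and 1005 in homozygous libraries, 221 and 161 against 518 and 717 in the middle, and 257 and 577 against 436 and 149 at the base. Their defining member *Kcne1* was listed at 0 in 4 libraries and reached 121 in the homozygous apical repeat 2. All 6 markers had positive log2 differences over the turns (median 1.33). Of these 6, 0 were called by limma and 5 had an unadjusted p under 0.05, against 0.376% and 18.6% of all genes tested. At the base their median was −0.23, with 2 positive and 4 negative. *Kcnq1*, a neighbour of *Cdkn1c* in the genome, is itself 1 of the 6 and is also on the second list of imprinted genes described below. In the wild-type basal repeat 2, with a strial sum of 577, *Cdkn1c* was 32.0. The homozygous basal libraries, with sums of 436 and 149, had 58.8 and 33.4. The highest values of *Cdkn1c*, 173 and 157, came with the highest sums, 1005 and 717. The part of these cells in the *Cdkn1c* difference was not tested, and in bulk tissue fewer cells of a type and less RNA per cell cannot be told apart.

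The 3 turns come from cut cochleae, so libraries of different turns may share animals, which the fit treats as independent. With the repeat number as a block the call was lost (limma adjusted p = 0.0235). The call of *Cdkn1c* held in 1 of the 12 fits that each left out a library, the one without the wild-type basal repeat 2 (adjusted p = 0.00649 by limma), and in the other 11 the adjusted p ran up to 0.0503 with log2 differences of 1.60 to 1.92. *Slc22a18*, a membrane transporter gene, lay in the same domain and on the same sides as *Cdkn1c* in 2 turns, at 1.84 and 2.20 scaled FPKM in wild-type against 3.20 and 3.998 in homozygous libraries at the apex and 1.91 and 1.92 against 3.02 and 3.35 in the middle. At the base it was 3.36 and 2.77 against 2.21 and 3.36, where the genotypes overlapped. Its log2 difference was 0.60, 0.52 and −0.12 in the 3 turns and 0.34 over them, none called (limma adjusted p = 0.185, 0.148, 0.728 and 0.162). Both tested genes of this domain thus had positive differences at the apex and in the middle. *Phlda2*, which restrains placental growth, and *Kcnq1ot1*, the noncoding RNA that silences the domain on the paternal chromosome, were not tested. *Kcnq1ot1* lay between 0.167 and 0.511 scaled FPKM, and *Kcnq1* runs over its whole length on the other strand, so that without a stated strand of counting their reads cannot be told apart.

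*H19* (chr7:142575529-142578143) is a maternally expressed noncoding RNA, whose control region was one of the pair deleted in the founder stem cells. In the apical turn it was 4.81 and 5.56 scaled FPKM in wild-type against 18.9 and 13.8 in homozygous libraries. Middle-turn values were 13.5 and 14.8 against 85.7 and 9.87, and in the basal turn 7.32 and 33.1 against 35.98 and 70.6. The genotypes did not overlap at the apex and the base, but did in the middle turn, where the homozygous repeats were far apart. The repeat at 85.7 is the library with the high cell cycle sum, and its bone marker sum was 2262 against 586 in the other repeat. The log2 difference over the turns was 1.37 (standard error 0.52, limma adjusted p = 0.204), and 0.87 without that library. Bone markers summed to 56.9 and 117 in wild-type against 290.3 and 647 in homozygous libraries at the apex, where 8 of 8 had positive log2 differences (median 1.88). Their part in the *H19* and *Cdkn1c* differences was not tested.

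*Igf2* (chr7:142650766-142666816), the paternally expressed growth factor beside *H19*, was 32.1 and 24.1 scaled FPKM in wild-type against 30.9 and 25.5 in homozygous libraries at the apex. For the middle turn it was 65.5 and 27.3 against 89.9 and 31.9, and at the base 40.9 and 107 against 46.8 and 252. The genotypes overlapped in every turn, and repeats of 1 group differed more than genotypes did. Its log2 difference over the turns was 0.35 (standard error 0.47, adjusted p = 0.763). *H19* and *Igf2* therefore had differences of the same sign in each of the 3 turns, and neither was called. *Gm49394* overlaps 16048 of the 16051 bases of *Igf2* on the same strand, so reads may be split between the rows.

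Neighbours from opposite parental copies were also compared as a ratio within each library. The log2 ratio of *H19* to *Igf2*, each with 1 added, at the apex was −2.51 and −1.94 in wild-type against −0.68 and −0.84 in homozygous libraries. It was −2.20 and −0.84 against −0.07 and −1.60 in the middle turn, and −2.33 and −1.66 against −0.37 and −1.82 at the base. Only the apical turn kept the genotypes apart. The homozygous mean was 1.02 above the wild-type mean, with p = 0.0463 by a two-sided exact permutation test of genotypes within turns (216 assignments, smallest possible p 0.00926) and 0.0926 after adjustment over the 2 pairs tested. For *Airn* to *Igf2r* the difference was −0.41 (p = 0.278 by the same exact permutation test, adjusted 0.278).

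*Igf2r* (chr17:12682406-12769664) encodes the receptor that clears IGF2 and is maternally expressed. It was 9.51 and 10.2 scaled FPKM in wild-type against 16.4 and 14.6 in homozygous libraries at the apex. The values in the middle were 7.68 and 7.25 against 12.6 and 13.7, and at the base 9.05 and 11.6 against 10.4 and 6.04. The homozygous libraries lay above at the apex and in the middle and overlapped with wild-type at the base. Its log2 difference was 0.60, 0.74 and −0.33 in the 3 turns, none called (smallest limma adjusted p = 0.0888, in the middle turn). *Airn*, the paternal noncoding RNA that silences *Igf2r*, overlaps it on the other strand and lay between 3.89 and 10.3 scaled FPKM, with a log2 difference of −0.07 over the turns (adjusted p = 0.870).

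**Figure D2:**
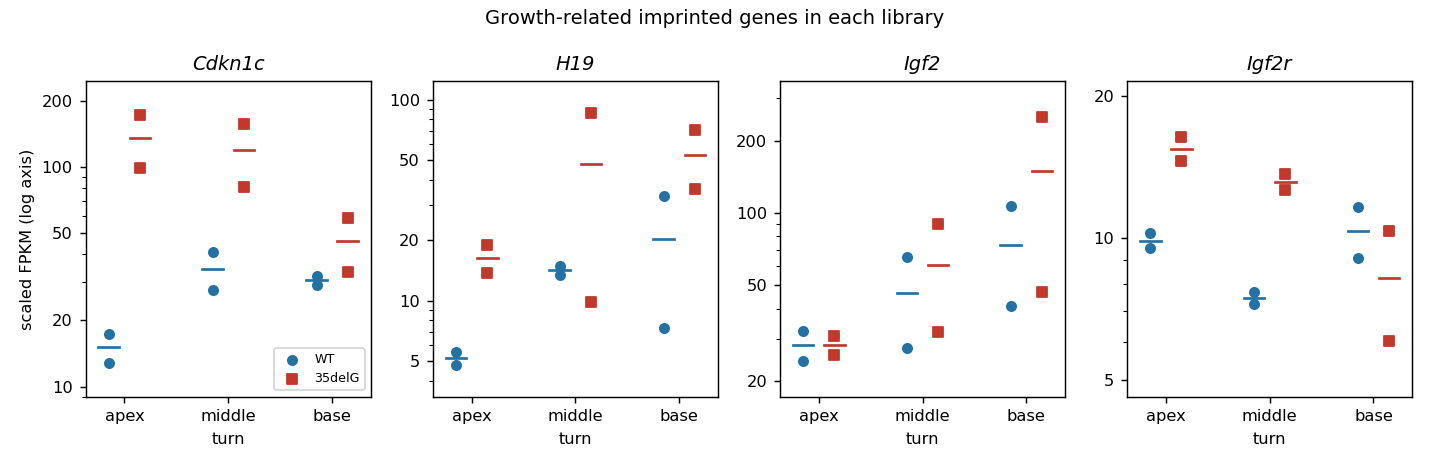
Scaled FPKM (log axis) of *Cdkn1c*, *H19*, *Igf2* and *Igf2r* in wild-type (blue circles) and 35delG homozygous libraries (red squares) by turn, each point a library and each bar the mean of 2. *Cdkn1c* in homozygous libraries lies above wild-type in all 3 turns, while *Igf2* overlaps in each.

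*Grb10*, an adaptor that dampens insulin and IGF receptor signalling, was 9.44 and 8.37 scaled FPKM in wild-type against 7.57 and 4.64 in homozygous libraries at the apex. In the middle turn it was 6.92 and 6.54 against 12.3 and 7.08, and at the base 13.9 and 10.7 against 4.11 and 9.02. Homozygous libraries lay below at the apex and the base and above in the middle turn. *Plagl1*, a zinc finger transcription factor that regulates a network of imprinted genes, was 1.44 and 1.32 against 1.83 and 1.49 at the apex, 2.30 and 2.39 against 3.39 and 0.988 in the middle, and 1.56 and 2.34 against 4.22 and 4.41 at the base. Neither was called in a turn, with log2 differences at the base of −0.88 for *Grb10* (limma adjusted p = 0.122) and 0.86 for *Plagl1* (adjusted p = 0.104).

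Within turns, 0 of the 27 tested members were called at the apex, 0 in the middle and 1 (*Mest*) at the base by limma. Over all genes tested, 0.179% were called at the apex, 0.179% in the middle and 4.29% at the base (2.53% as higher). At an unadjusted p under 0.05 the members numbered 7, 12 and 13, against 16.4%, 25.4% and 32.4% of all genes. The signs, however, changed from turn to turn. At the apex 11 members had a positive and 16 a negative log2 difference, in the middle 8 and 19, and at the base 23 and 4. The median over the members was −0.13, −0.44 and 0.71 in the 3 turns, and the median over all genes −0.03, 0.04 and −0.02. Leaving out the homozygous apical repeat 2 took the apical median of the members to −0.08, and leaving out the homozygous middle repeat 2 took the middle one to −0.25.

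Counted by libraries, the pair of homozygous values exceeded the wild-type pair for 8 members at the apex (26.9% of all genes), 4 in the middle (31.3%) and 17 at the base (26.2%). They lay below for 9 members at the apex (32.1% of all genes), 14 in the middle (28.2%) and 1 at the base (27.8%). *Peg3*, *Snrpn*, *Meg3*, *Rian*, *Mirg*, *Zrsr1* and *Peg13* lay below wild-type at the apex and in the middle and above it at the base, 7 of 27 against 9.40% of all genes tested. No member lay below in all 3 turns, against 2.06% of all genes.

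**Figure D3:**
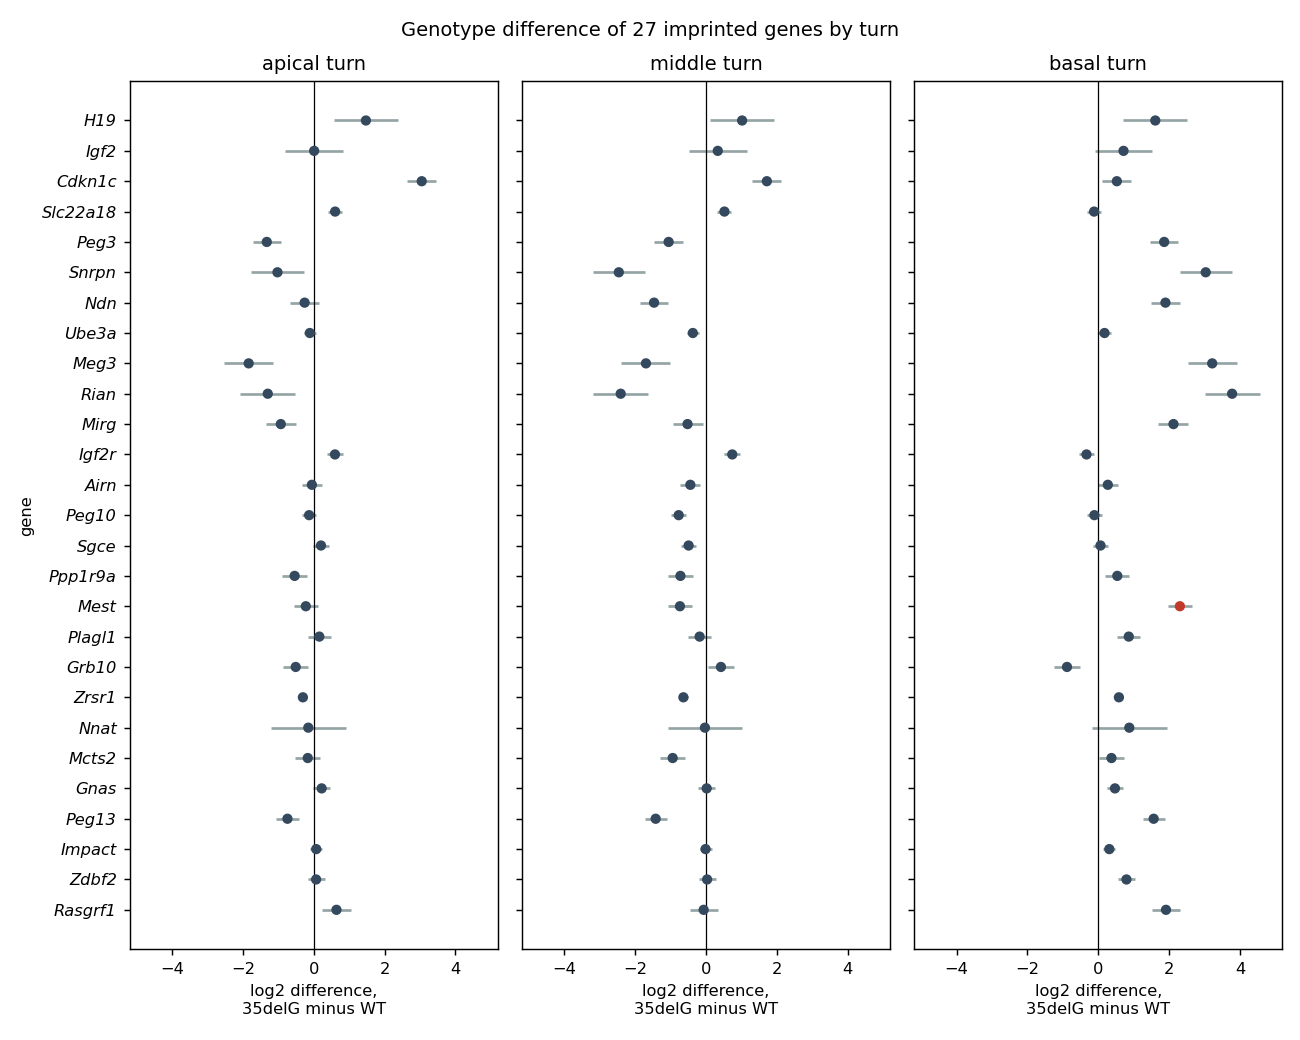
Log2 difference (35delG homozygous minus wild-type, on log2(scaled FPKM + 1)) of the 27 tested imprinted genes in each turn, with bars of 1 standard error from limma and the called gene in red. Most points lie left of 0 in the middle turn and right of 0 in the basal turn.

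The genotype difference at the base was set against that in the middle turn as an interaction in the same limma fit. Here 8 of 27 members were called, all with the larger genotype difference at the base, namely *Meg3*, *Rian*, *Snrpn*, *Ndn*, *Peg3*, *Peg13*, *Mest* and *Zrsr1*. That is 29.6% of the members tested, against 8.91% of all genes tested called in either direction and 6.33% in this one. The median interaction was 0.91 over the members and −0.12 over all genes. The wild-type middle and homozygous basal libraries had the lowest hair cell sums and the highest neuron sums of all libraries. The interaction therefore compares pieces of unlike make-up, and the part of this in the calls was not tested. Each fit without a library had a single library in a group, and the number called over all genes moved widely between these fits. None of the 8 calls held in every such fit. Over these fits the interaction was 5.12 to 7.25 for *Rian*, 4.19 to 6.79 for *Snrpn*, 3.86 to 5.99 for *Meg3* and 2.86 to 3.86 for *Ndn*. The range was 2.54 to 3.53 for *Mest*, 2.42 to 3.57 for *Peg13*, 2.33 to 3.52 for *Peg3* and 1.15 to 1.32 for *Zrsr1*. The lowest values of *Snrpn*, *Ndn* and *Mest* came without the wild-type basal repeat 1. Each of the 8 genes named first kept its direction in every fit.

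The noncoding RNAs of the Dlk1-Meg3 domain on chromosome 12 are maternally expressed and lie downstream of the IG-DMR. *Meg3* (chr12:109541005-109571726), a long noncoding RNA abundant in neurons, was 55.0 and 132 scaled FPKM in wild-type against 25.4 and 21.1 in homozygous libraries at the apex. The middle turn had 48.5 and 97.8 against 29.9 and 14.1, and at the base 22.02 and 22.9 against 453 and 104. The homozygous libraries were the lower ones in 2 turns and by far the higher ones at the base. The log2 difference was −1.84 and −1.69 in the first 2 turns and 3.22 at the base (limma adjusted p = 0.238, 0.169 and 0.0160), and the difference between base and middle was 4.91 (standard error 0.98, adjusted p = 0.00912).

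*Rian* (chr12:109603808-109661716), which hosts small nucleolar RNAs, was 48.0 and 91.7 against 18.5 and 37.5 scaled FPKM at the apex. Middle-turn values were 77.6 and 125 against 38.2 and 7.99, and at the base 8.25 and 29.4 against 295 and 177. The order of the genotypes was that of *Meg3* in every turn, and the difference between base and middle was 6.19 (standard error 1.09, limma adjusted p = 0.00584), the largest of the 8. *Mirg*, host of the 14 microRNA hairpins counted above, was lower throughout, at 0.467 to 9.42 scaled FPKM, with the same sides in the 3 turns. Its interaction of 2.64 (standard error 0.60, adjusted p = 0.0151) was not called. *Rtl1*, a paternally expressed gene derived from a retrotransposon, stayed at 0.870 or lower, also with homozygous libraries below, below and above, and *Dlk1*, the paternally expressed Notch-ligand-like protein, was near 0, so the ratio of *Meg3* to *Dlk1* could not be tested.

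*Snrpn* (chr7:59982495-60140219), a paternally expressed spliceosome protein gene used in neurons, was 67.1 and 89.2 scaled FPKM in wild-type against 27.1 and 51.7 in homozygous libraries at the apex. For the middle turn it was 142 and 194 against 44.4 and 19.3, and at the base 12.05 and 77.9 against 242 and 283. The genotypes did not overlap in any turn and changed order between middle and base. The interaction was 5.50 (standard error 1.05, limma adjusted p = 0.00764), from a log2 difference of −2.46 in the middle (adjusted p = 0.0885) and 3.03 at the base (adjusted p = 0.0245). *Snurf* shares part of the same transcript and strand, and reads may be split between the rows.

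*Ndn* (chr7:62346569-62350262), which encodes necdin, a protein of postmitotic neurons, was 8.42 and 9.20 against 5.87 and 8.79 at the apex. The values in the middle were 19.4 and 16.3 against 7.54 and 4.40, and at the base 4.29 and 9.46 against 19.1 and 37.1 scaled FPKM. Its genotypes overlapped at the apex only, and the interaction was 3.36 (standard error 0.57, limma adjusted p = 0.00499). *Ube3a*, the ubiquitin ligase at the far end of the domain, maternally expressed in neurons, varied little, between 10.7 and 16.7 scaled FPKM, with an interaction of 0.55 (adjusted p = 0.138). *Peg12* (0.207 to 0.887 scaled FPKM) and *Magel2* were not tested.

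*Peg3* (chr7:6703892-6730421), a paternally expressed zinc finger gene, was 16.3 and 24.9 against 8.48 and 6.54 scaled FPKM at the apex. In the middle turn it was 14.3 and 22.4 against 9.70 and 6.75, and at the base 7.05 and 10.1 against 50.5 and 21.9. As for *Meg3*, the homozygous libraries were lower in 2 turns and higher at the base, with an interaction of 2.92 (standard error 0.57, limma adjusted p = 0.00846). *Usp29*, the ubiquitin protease gene transcribed from the shared promoter in the other direction, lay on the same sides at 0.00790 to 1.13 scaled FPKM and was not tested. *Zim1*, the maternally expressed neighbour, was 0.109 to 0.589 scaled FPKM and also not tested.

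*Mest* (chr6:30733506-30748465), a paternally expressed hydrolase-fold protein gene of mesoderm and brain, was 4.26 and 6.26 scaled FPKM in wild-type against 4.85 and 3.79 in homozygous libraries at the apex. The middle turn had 7.40 and 7.998 against 5.66 and 3.09, and at the base 1.59 and 4.08 against 16.7 and 17.1. The genotypes overlapped at the apex, and the homozygous libraries were lower in the middle and higher at the base. At the base it rose by 2.30 (standard error 0.34, limma adjusted p = 0.00619), the only member called there. Of the 12 fits without a library, 3 kept this call, those without the wild-type basal repeat 2 and without either homozygous middle library, and over all 12 the difference was 1.81 to 2.79 (adjusted p = 0.00125 to 0.0265). The interaction of base against middle was 3.04 (standard error 0.48, adjusted p = 0.00409).

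*Peg13* (chr15:72805600-72810324), a paternal noncoding RNA inside *Trappc9* on the same strand, was 19.2 and 20.8 against 11.7 and 11.4 scaled FPKM at the apex. Middle-turn values were 27.6 and 26.5 against 10.97 and 8.16, and at the base 10.7 and 12.8 against 54.5 and 24.3. Wild-type repeats were close in each turn, and the genotypes never overlapped. The interaction was 2.98 (standard error 0.44, limma adjusted p = 0.00360). Reads of *Trappc9* may enter this row.

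*Zrsr1* (chr11:22972005-22976496), a splicing factor gene inside *Commd1*, changed over a narrower range. It was 10.998 and 12.3 against 9.44 and 8.98 scaled FPKM at the apex, 14.9 and 15.1 against 9.42 and 9.13 in the middle, and 11.6 and 10.7 against 18.2 and 16.2 at the base. The genotypes were apart in each turn, in the order seen for *Peg3*. Its interaction was 1.22 (standard error 0.18, limma adjusted p = 0.00362), the smallest of the 8 in size with the smallest error.

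The other domains held no called member. *Nnat*, the membrane proteolipid neuronatin, was 47.0 and 41.1 against 36.7 and 42.4 scaled FPKM at the apex, 140.5 and 24.1 against 63.2 and 52.1 in the middle, and 36.5 and 276 against 87.6 and 394 at the base. Its repeats differed more than its genotypes, and the genotypes overlapped in every turn. *Blcap* runs over the whole of *Nnat* on the other strand, and the strand of counting is not stated. *Rasgrf1*, a Ras exchange factor of neurons, was 1.33 and 1.39 against 3.80 and 1.83 at the apex, 1.48 and 2.63 against 1.65 and 2.10 in the middle, and 0.630 and 2.79 against 8.45 and 8.25 at the base. Homozygous libraries of *Rasgrf1* were the higher ones at apex and base, with a log2 difference at the base of 1.91 (standard error 0.40, limma adjusted p = 0.0142).

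*Gnas* was 459.7 and 479 against 507 and 592 scaled FPKM at the apex, 514 and 483 against 481 and 529.8 in the middle, and 448 and 446 against 573 and 670.2 at the base. The log2 difference was 0.24 over the turns (limma adjusted p = 0.402), although homozygous libraries were the higher ones at both ends. *Mcts2*, a retrogene inside *H13* on the same strand, was 5.02 and 6.9998 against 4.55 and 5.86 at the apex, 9.07 and 14.2 against 5.97 and 4.96 in the middle, and 4.94 and 10.1 against 7.49 and 12.04 at the base. *Mcts2* was lower without overlap in the homozygous middle libraries only.

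*Impact*, which restrains the stress kinase GCN2, was even across the cochlea, at 14.6 and 13.8 against 16.6 and 13.4 scaled FPKM at the apex, 13.9 and 13.4 against 11.8 and 15.5 in the middle, and 13.7 and 16.3 against 19.5 and 18.1 at the base. *Zdbf2*, a zinc finger gene imprinted from the embryo on, was 0.750 and 0.789 against 1.04 and 0.681 at the apex, 0.634 and 0.940 against 0.811 and 0.828 in the middle, and 0.533 and 0.330 against 2.05 and 1.01 at the base. For both, the genotypes were apart at the base only, and the largest of these differences was 0.80 for *Zdbf2* at the base (limma adjusted p = 0.0522).

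*Sgce*, the epsilon-sarcoglycan gene, was 13.4 and 12.9 against 14.6 and 16.02 scaled FPKM at the apex, 23.2 and 17.1 against 14.3 and 13.5 in the middle, and 17.1 and 17.4 against 14.2 and 23.0 at the base. Its neighbours in the Peg10 domain were lower. *Peg10*, derived from a retrotransposon and needed in the placenta, lay between 0.606 and 2.07, *Ppp1r9a*, which encodes the actin-binding neurabin, between 4.72 and 12.9, and *Asb4*, a maternally expressed ubiquitin ligase component, at 0.286 or lower. The 3 tested genes of this domain had log2 differences of −0.34 for *Peg10*, −0.24 for *Ppp1r9a* and −0.07 for *Sgce* over the turns (limma adjusted p = 0.177, 0.581 and 0.824).

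Against the apical turn, the genotype difference at the base gave 0 called members (0.796% of all genes tested), 12 at an unadjusted p under 0.05 (28.4% of all genes) and a smallest limma adjusted p of 0.0135, for *Peg3*. Of the 27 members, 22 had the larger difference at the base, with a median of 0.70 that was 0.25 without the wild-type basal repeat 1. For *Cdkn1c* the sign was the opposite, −2.52 (standard error 0.58, adjusted p = 0.0265). Between the middle and apical turns 0 members and 0 of all genes (0%) were called, 1 member had an unadjusted p under 0.05 (8.05% of all genes), and the smallest limma adjusted p of a member was 0.614.

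Grouped by the parental copy assigned to each gene, 16 paternally and 8 maternally expressed genes were tested. *Ube3a*, *Grb10* and *Gnas*, assigned an imprint that depends on cell type or transcript, were left out. Which copy was read in the cochlea was not measured for any gene. Over the turns, 8 of the 16 paternal genes had a positive and 8 a negative log2 difference, and of the maternal genes 6 and 2. In the middle turn 14 of the 16 paternal genes were negative, and at the base 15 were positive, while the interaction of base against middle was positive for 16 of 16. For the maternal genes the split was 4 and 4 in the middle, 6 and 2 at the base and 5 and 3 for the interaction. At the base the median was 0.83 for paternal and 1.07 for maternal genes, and for the interaction 1.13 and 0.93. In the middle turn it was −0.56 and −0.00055. The 14 neuron markers were as one-sided, with 13 negative in the middle and 14 positive at the base. The share of such signs over all genes was not counted. Within domains, all tested genes of the Dlk1-Meg3 domain (*Meg3*, *Rian* and *Mirg*, all maternal) and of the Snrpn domain (*Snrpn*, *Ndn* and *Ube3a*) had the same sign in each turn, negative at the apex and in the middle and positive at the base. In the Igf2r domain, *Igf2r* and *Airn* had opposite signs in every turn. The differences of *Airn* were small against their standard error of 0.28, at −0.05, −0.44 and 0.27, and none was called. The 2 genes overlap on opposite strands and the strand of counting is not stated, so reads may be mixed.

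Among the members called for the interaction, both parental copies are thus represented, *Meg3* and *Rian* being maternal and the other 6 paternal. They lie on chromosomes 6, 7, 11, 12 and 15.

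Neuron and myelin markers changed sides between the turns in the same libraries. The sum of the 14 neuron markers at the apex was 768 and 1117 in wild-type against 223 and 422 in homozygous libraries, 1816 and 2015 against 454 and 65.0 in the middle, and 19.5 and 971 against 3349 and 3866 at the base. Thus homozygous libraries were lower in 2 turns and higher at the base, the order of *Meg3*, *Rian*, *Snrpn*, *Peg3* and *Peg13*. The median log2 difference of the neuron list was −1.55, −3.34 and 4.17 in the 3 turns, with 0 of 14 called by limma in any (0, 8 and 12 at an unadjusted p under 0.05), and 7.21 for base against middle, with 3 of 14 called (*Elavl4*, *Eno2* and *Rbfox3*). In the wild-type basal repeat 1 *Rbfox3* and *Prph* were listed at 0.

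The 10 markers of Schwann cells and myelin had medians of −0.77, −2.63 and 2.34, with *Pllp* and *Prx* called lower in the middle, and *Cldn19*, *Egr2* and *Prx* among those called higher at the base. For base against middle their median was 4.77, with 7 of 10 called. The interactions of the 8 called members, 1.22 to 6.19, lay in the same direction as these medians. Oligodendrocyte markers, which belong to the central part of the nerve, had a median of 4.73 for base against middle with 0 of 6 called. The part of nerve tissue in the members' differences was not tested.

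**Figure D4:**
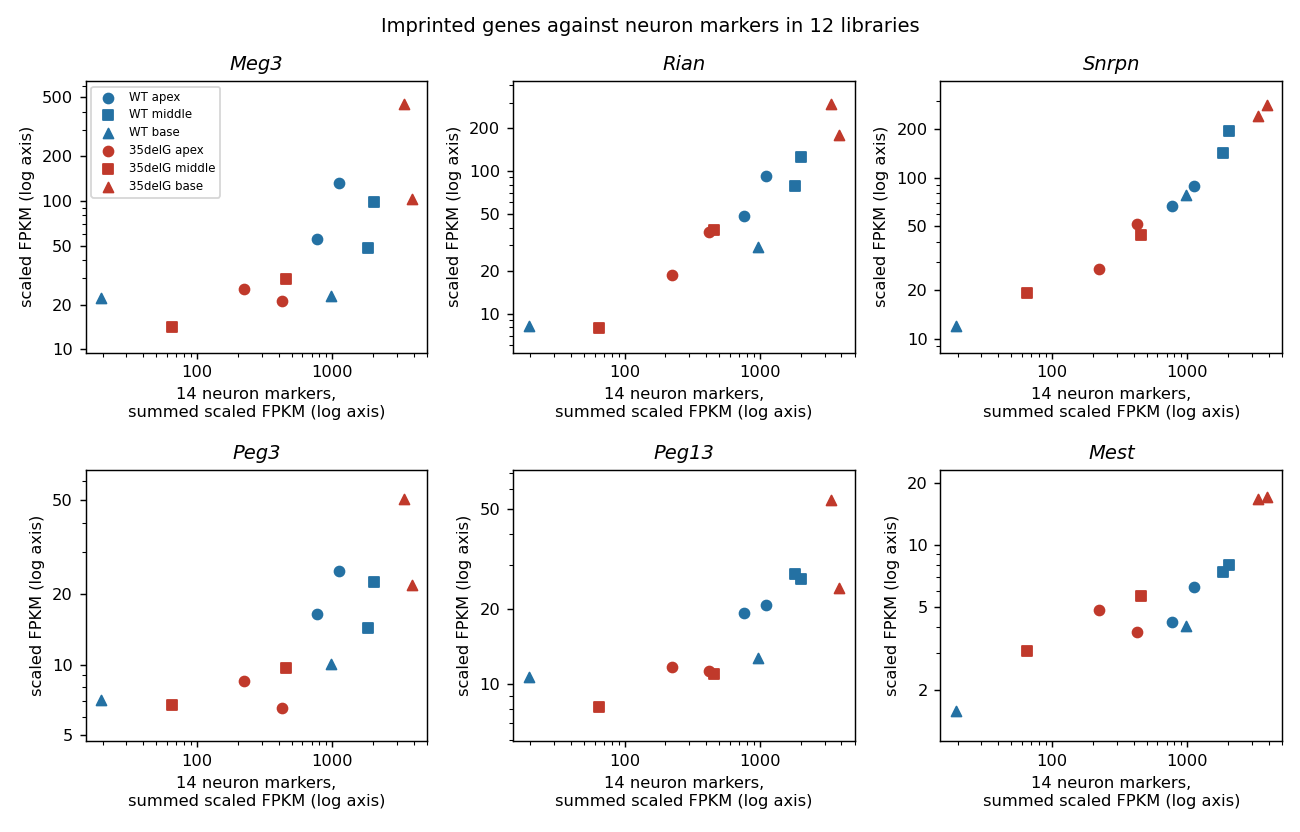
Scaled FPKM of 6 imprinted genes against the summed scaled FPKM of 14 neuron markers, both on log axes, each point a library, coloured by genotype and shaped by turn. Both axes come from the same libraries. The 2 homozygous basal libraries have the highest neuron sums, 3349 and 3866, and the wild-type basal repeat 1 has the lowest, 19.5.

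The wild-type basal repeats differed 49.9-fold in the neuron sum, and also in the sums of bone (305 and 2404), oligodendrocyte (2.13 and 271) and strial markers (257 and 577). Between these 2 libraries *Nnat* differed 7.54-fold, *Snrpn* 6.46-fold, *H19* 4.52-fold, *Rasgrf1* 4.42-fold, *Rian* 3.56-fold, *Igf2* 2.61-fold, *Mest* 2.57-fold and *Ndn* 2.21-fold, each higher in repeat 2. Of the other genes called for the interaction, *Peg3* was 7.05 and 10.1, *Meg3* 22.02 and 22.9, *Peg13* 10.7 and 12.8, and *Zrsr1* 11.6 and 10.7.

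The other marker lists had these genotype medians at the base and for base against middle. Hair cell markers had −2.36 (*Gfi1*, *Otof* and *Pou4f3* called lower) and −3.76, and supporting cell markers −1.31 (*Otog* called lower) and −2.92. Fibrocyte and mesenchyme markers had −1.09 and −1.80, bone markers −0.04 and −0.89, erythroid markers −2.89 and −3.65, and skeletal muscle markers −0.63 and −0.79. Endothelial markers had −0.21 (*Emcn* called lower) and −0.72, macrophage markers −0.31 and −0.51, and cell cycle markers −0.48 and −2.66. The medians of these lists were thus negative in both comparisons. Single markers differed, and for base against middle 4 supporting cell markers were called lower and 1, *Prox1*, higher. At the base 4 bone markers were positive and 4 negative. The part of these tissues in the members' differences was not tested.

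Imprinted genes outside the 36 were taken as a second list of 51, of which 48 were in the table and 38 were tested. Over the turns 0 of 38 were called by limma, and 7 had an unadjusted p under 0.05, against 0.376% and 18.6% of all genes tested. At the base *Herc3* and *Inpp5f* were called higher and *Qpct* lower, against 4.29% of all genes tested called in either direction. For base against middle 8 were called higher, *Adam23*, *Copg2*, *Gatm*, *Herc3*, *Inpp5f*, *Kcnk9*, *Nap1l5* and *Snhg14*, and 1 lower, *Cobl*. Over all genes tested 8.91% were called there in either direction and 6.33% as higher. *Nap1l5*, a nucleosome assembly gene inside *Herc3*, was 40.2 and 49.3 against 9.28 and 26.1 scaled FPKM at the apex, 96.2 and 151 against 26.9 and 6.56 in the middle, and 5.28 and 44.0 against 166 and 204 at the base. *Snhg14*, the noncoding RNA that continues from *Snrpn* toward *Ube3a*, was 9.16 and 20.2 against 4.82 and 6.10, then 14.003 and 19.9 against 6.503 and 3.24, and at the base 1.87 and 6.86 against 40.5 and 24.3. Both had the order of *Snrpn* in the 3 turns. The median of the 38 was 0.13 at the base and 0.16 for base against middle, closer to all genes than the median of the 27 members.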

How the data were processed

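RNA was extracted with the miRNeasy Micro Kit, made into libraries with the VAHTS Universal V8 kit and sequenced as paired ends on a NovaSeq. The authors trimmed reads with fastp 0.20.0, aligned them to mm10 with STAR 2.7.3a, kept uniquely mapped reads and deposited FPKM values from StringTie 2.0 for 37432 genes, in 12 columns. The annotation version and the strand setting are not given in the sources used here. Of the 36 identifiers, 33 were found in GENCODE M21, 24 with the same start and end. Coordinates are those of the table (mm10), 1-based.

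Each library was scaled by the median of its ratios to the geometric mean profile of the 11552 genes that reached 1 FPKM throughout. Tests covered 16215 genes that reached 1 FPKM in 2 or more libraries and used limma 3.58.1 under R 4.3.3. Values were log2(scaled FPKM + 1), and the model had 6 group means, 6 residual and 2.78 prior degrees of freedom, an intensity trend, two-sided tests and Benjamini-Hochberg adjustment over all genes tested. Differences are smaller on this scale than ratios of FPKM for genes near 1. A call required an adjusted p below 0.01 and more than a 2-fold change. The fit was tested on simulated data. Figures used matplotlib 3.10.9.

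The members, the lists and the alternatives were chosen with earlier results of these data known. Values in every library are given for members called over the turns or in a turn, on 1 side in all turns, or highest in their domain. *H19*, *Slc22a18*, *Rian* and *Ndn* were added to these, and *Nap1l5*, *Snhg14* and *Kcnq1* from the second list, after their values were seen. Other settings tried were a pseudocount of 0.1 or 0.01, dropping the filter or raising it to 5 FPKM, FPKM as deposited, an equal sum, quantile normalization, no trend, library weights, a replicate block, a looser adjusted p of 0.05, calls by p alone, only the 4 libraries of a turn, and leaving out each library. Repeats of a group shared 0 to 3 identical values above 0.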

Additional observations from a re-analysis of the deposited data

Results flagged for a closer look

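For 8 of the 27 tested imprinted genes the genotype difference at the base was not that in the middle turn by the interaction test in limma (adjusted p under 0.01). Of all genes tested, 8.91% were called in this comparison in either direction and 6.33% as higher. Neuron markers had a median of 7.21 in it and Schwann cell and myelin markers 4.77, and their part in the calls was not tested. On the log2(scaled FPKM + 1) scale, the basal difference exceeded the middle one by 6.19 for *Rian*, 5.50 for *Snrpn*, 4.91 for *Meg3*, 3.36 for *Ndn*, 3.04 for *Mest*, 2.98 for *Peg13*, 2.92 for *Peg3* and 1.22 for *Zrsr1*. Groups of 2 are too small to look for single outlying libraries.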

How the results depend on the processing

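The count of called members was 1 over the turns and fell to 0 with a pseudocount of 0.01, no filter, a filter of 5 FPKM, an equal sum, no trend and library weights, and it ran from 0 to 1 when a library was left out. At the apex it went from 0 to 1 (*Cdkn1c*) with library weights and at an adjusted p under 0.05, and in the middle from 0 to 1 (*Peg13*) at an adjusted p under 0.05. Over all 16215 genes tested, the apical count was 29 in the fit used above, 258 with library weights and 136 at an adjusted p under 0.05. The middle count went from 29 to 475 at an adjusted p under 0.05. At the base it went from 1 to 0 with no filter, library weights or only the 4 libraries of the turn, to 3 with an equal sum, to 2 with quantile normalization and to 9 at an adjusted p under 0.05, and leaving out a library gave 0 to 5 (5 without the wild-type basal repeat 2). For base against middle it went from 8 to 5 with a pseudocount of 0.01, an equal sum or library weights, to 1 with no filter, and to 0 to 8 without a library. For base against apex it went from 0 to 1 with an equal sum, to 9 at an adjusted p under 0.05, and to 0 to 4 without a library. For middle against apex it was 0 throughout. Over all genes tested the counts moved as well. At the base 696 were called in the fit used above, 89 with no filter and 22 with library weights. The count was 0 with only the 4 libraries of the turn, 692 with an equal sum, 820 with quantile normalization and 1954 at an adjusted p under 0.05. For base against middle 1445 became 1094 with a pseudocount of 0.01, 1240 with an equal sum, 973 with library weights and 296 with no filter. For base against apex 129 became 439 with an equal sum and 1810 at an adjusted p under 0.05. Over the turns 61 became 66 with a pseudocount of 0.01, 26 with no filter, 31 with a filter of 5 FPKM and 50 with an equal sum. That count was 60 with no trend and 67 with library weights. Leaving out a library also moved the counts over all genes. The causes were not tested, except that p-values without a filter are adjusted over 36005 genes.

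With the repeat number as a replicate block the counts were 0 over the turns, 0 at the apex, 0 in the middle, 0 at the base, 4 for base against middle and 0 for base against apex. Over all 16215 genes tested they were, in the same order, 34, 12, 12, 177, 967 and 0. No source links equal numbers. Deviations of same-numbered libraries correlated at −0.07 at the apex, −0.01 in the middle and 0.21 at the base, within a range of −0.43 to 0.45 over all 15 group pairs.

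The differences run under every setting, those of *Cdkn1c* (over the turns, apex and middle), *H19* (over the turns), *Mest* (base) and the 8 interactions, kept their direction. Differences of other members were not run one by one. The *H19* to *Igf2* ratio kept its sign and stayed above an adjusted p of 0.05 (0.76 to 1.27 without a library), as did *Airn* to *Igf2r* (−0.57 to −0.25). The ratios of *Meg3* to *Dlk1*, *Kcnq1ot1* to *Cdkn1c* and *Zim1* to *Peg3* were not run, since 1 gene of each pair was not tested. An equal sum moved the median of all genes by more than 0.1 in some comparisons, to −0.13 at the apex and 0.17 for base against apex, and made 79.5% of all called genes at the base higher, against 58.9%. Unknown depth limits statements on genes below 1 FPKM, and 2 repeats per group limit the rest.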

Other observations

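Genes that keep imprints and DNA methylation in place were compared as a list of 22, of which 18 were tested. None were called by limma in any of the comparisons between genotypes or turns, where 0% to 8.91% of all genes tested were. Over the turns 4 had an unadjusted p under 0.05, against 18.6% of all genes tested. The medians were −0.03 over the turns, −0.14 at the apex, 0.18 in the middle and 0.03 at the base. *Trim28*, the corepressor recruited by ZFP57, ranged from 18.4 to 25.97 scaled FPKM in wild-type mice and from 24.2 to 33.9 in homozygous mice, with a log2 difference of 0.29 over the turns (adjusted p = 0.148). *Zfp57* itself was low, at 0.322 to 2.05 scaled FPKM.

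Of 14 other genes of the IGF pathway, 13 were tested and none were called by limma. Over the turns 3 had an unadjusted p under 0.05, against 18.6% of all genes tested. *Igfbp5*, an IGF-binding protein and the highest of the list, had a log2 difference of −0.61 over the turns and −1.24 at the base (limma adjusted p = 0.215 and 0.0708). The median of the list at the base was −0.54, with 3 genes positive and 10 negative. *Kcnq1*, a potassium channel subunit of strial marginal cells and a neighbour of *Cdkn1c*, at the apex was 1.90 and 2.96 scaled FPKM in wild-type against 21.8 and 60.1 in homozygous libraries, 2.90 and 3.54 against 25.6 and 35.4 in the middle, and 7.70 and 27.2 against 19.1 and 0.574 at the base. Its log2 difference was 1.62 over the turns (adjusted p = 0.191).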
